A study of Neurospora crassa with 10 samples.

Results

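Mycelium of the filamentous fungus *Neurospora crassa* that had been lit for 120 min was compared with mycelium that had stayed in the dark, across all expressed genes. The 4 RNA-seq samples used are 2 light 120 min samples and 2 dark samples, out of the 10 samples of the series, and each light sample was set against the dark sample of the same replicate number. All cultures were the wild-type strain FGSC2489 of mating type A, started from conidia in liquid Bird's medium, shaken at 25° and kept dark for 24 hr, and the lit ones then received white light from cool fluorescent lamps at 1200 lux. The other samples are 2 replicates each of 15, 60, and 240 min of light, and of these the 15 and 60 min samples entered the fit to help estimate the spread of each gene. The level of a gene is its FPKM, a count of sequenced fragments scaled for transcript length and for the size of the library, so levels of different genes can be compared. Expressed genes, here those with a mean FPKM over 1 in at least 1 of the 5 time points, numbered 7688 of 9728. Of these, 7138 passed at 120 min and 7162 in the dark, 237 at 120 min and not in the dark, 261 in the dark and not at 120 min, and 289 only through another time point.

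*N. crassa* senses blue light mainly with the white collar complex, a pair of transcription factors of which WC-1 carries the flavin chromophore. The lit complex binds promoters of early genes, among them those of other regulators, and the photoreceptor VVD binds the complex in turn and dampens the response while the light goes on. The known outputs are carotenoid pigments in the mycelium, formation of asexual spores (conidia), resetting of the circadian clock, and development of sexual structures.

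FPKM keeps no read counts, so the depth behind a value is not known from it. Replicate 2 was sequenced less deeply than replicate 1 and its polyadenylated RNA was isolated with another method, and these differences cannot be told apart from the replicate number. The replicates disagreed by a factor of 2 or more in FPKM plus 1 for 518 genes at 120 min, 599 in the dark, and 3451 at 240 min. In whole mycelium, fewer cells of a type and less RNA per cell cannot be told apart. The 3 mycelial markers were abundant in all 4 samples: *nmt-1*, a thiamine biosynthesis gene, reached 17318 and 16352 FPKM at 120 min and 19989 and 24600 in the dark, and *hex-1*, which encodes the protein of the Woronin bodies that plug septal pores, had 1102 and 1414 at 120 min and 1710 and 2300 in the dark. The third, *cfp*, had 3658 and 3018 at 120 min and 3042 and 2032 in the dark. By the test *hex-1* was lowered (-0.67 ± 0.13), *cfp* raised (0.42 ± 0.14), and *nmt-1* not called (-0.40 ± 0.22), and neither of these calls stood without the replicate block, nor that of *cfp* with quantile normalization. Of the 2 pheromone receptor genes of sexual tissue, *pre-1* and *pre-2*, neither exceeded 0.504 FPKM in these samples.

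At 120 min, 2059 genes were raised (26.8% of those expressed) and 2545 lowered (33.1%) against the dark, so 59.9% were called in either direction. The test was limma on log2(FPKM + 1) in which the replicate number was a block, and a call needed an adjusted p of at most 0.05. The median of all expressed genes was -0.07 on the log2 scale. Many of these changes were small, since 1487 of the raised and 1848 of the lowered genes had a log2 fold change within 1 of 0, and the median standard error (SE) was 0.12. At least a 2-fold change of FPKM plus 1 in both replicates was seen for 469 raised genes (6.1%) and 539 lowered genes (7.01%), and 468 and 538 of them were also called by the test. A further 152 genes were 2-fold raised in replicate 1 alone and 131 in replicate 2 alone, and only 1 gene moved at least 2-fold in opposite directions in the 2 replicates. The 104 genes raised at least 4-fold in both replicates outnumbered the 33 lowered as much, and at 8-fold the numbers were 33 and 1. The balance depended on the scaling, since with each sample scaled to a common median 574 genes were raised and 421 lowered at least 2-fold in both replicates, and 2463 raised and 2069 lowered by the test. The counts of calls also depended on the model. Without the replicate block 524 genes were raised and 699 lowered, and with all 10 samples in the fit, the divergent 240 min samples included, 253 were raised and 622 lowered. These are named here the unblocked fit and the 10-sample fit, and every gene they called was called in the same direction in the main fit.

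**Figure D1:**
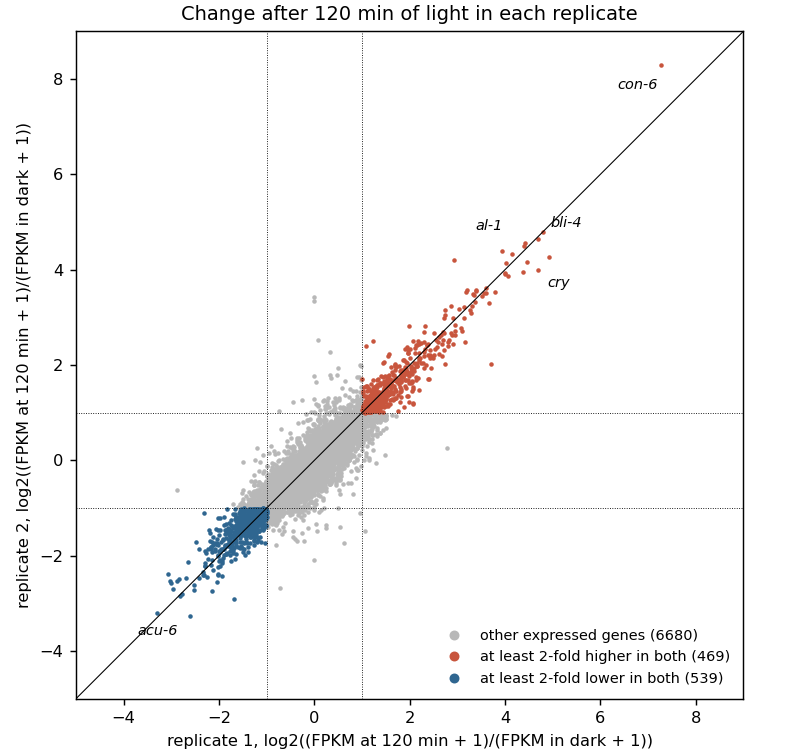
Log2 ratio of FPKM plus 1 at 120 min to that in the dark for each expressed gene, replicate 1 on the x axis and replicate 2 on the y axis. The diagonal marks equal change and the dotted lines mark a 2-fold change, and the 469 raised and 539 lowered genes lie beyond those lines in both replicates.

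The share of changed genes was not the same at all levels. Among genes with a mean FPKM over 120 min and dark between 100 and 1000, 18.9% were raised at least 2-fold in both replicates and 5.88% lowered, whereas between 3 and 10 FPKM 3.31% were raised and 9.01% lowered. The 469 raised genes had a median level of 52.97 FPKM at 120 min and 14.4 in the dark, and the 539 lowered genes one of 5.24 at 120 min and 17.5 in the dark. As a description of genes chosen by these same values, the raised genes held 21.2% and 18.8% of the summed FPKM at 120 min and 5.96% and 4.46% in the dark. Of 139 genes above 1000 FPKM, 16 were raised and 2 lowered at least 2-fold in both replicates, but by the test 33 were raised and 41 lowered, with a median log2 fold change of -0.24.

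The largest rise belonged to *con-6* (NCU08769), a gene first found through its expression during conidiation. It had 2262 and 1358 FPKM at 120 min and 13.8 and 3.36 in the dark, a log2 fold change of 7.77 ± 0.45 (SE). The blue light-induced genes *bli-4* and *bli-3* followed. *bli-4* had 65.8 and 64.04 FPKM at 120 min and 1.39 and 1.36 in the dark (4.79 ± 0.08), and *bli-3* had 651 and 433 at 120 min and 24.4 and 16.3 in the dark (4.66 ± 0.13). NCU00149, a hypothetical protein, was listed at 0 in both dark samples and had 29.2 and 18.2 FPKM at 120 min. A pair of dehydrogenases stood next: NCU01861, of the short-chain family, had 146 and 119 FPKM at 120 min and 5.85 and 4.09 in the dark (4.49 ± 0.10), and NCU11395, annotated as S-(hydroxymethyl)glutathione dehydrogenase, had 239 and 191 at 120 min and 10.3 and 7.49 in the dark (4.45 ± 0.12). The remaining genes of the 10 largest rises were *cry*, *con-10*, and the hypothetical proteins NCU09049 (104 and 74.4 FPKM at 120 min, 3.78 and 3.24 in the dark) and NCU07337 (82.1 and 88.7 at 120 min, 2.99 and 4.80 in the dark). In all 10, which were picked for their rise, the 120 min samples lay far above the dark ones, with adjusted p between 8.65e-07 and 2.35e-05. All 10 were also called in the unblocked fit and 8 in the 10-sample fit, the exceptions being NCU00149 and NCU07337.

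The largest falls were smaller than the largest rises. *acu-6* (NCU09873), which encodes phosphoenolpyruvate carboxykinase, the enzyme that commits oxaloacetate to gluconeogenesis, had 10.59 and 8.996 FPKM at 120 min and 113 and 91.1 in the dark (-3.25 ± 0.09). Fatty acid metabolism gave 3 of the 10. Both subunits of the fatty acid synthase fell together, *cel-2* (beta) to 5.47 and 2.75 FPKM at 120 min, against 50.8 and 21.2 in the dark (-2.78 ± 0.13), and *cel-1* (alpha) to 5.92 and 2.56 at 120 min, against 48.2 and 18.9 in the dark (-2.66 ± 0.12). The bifunctional fatty acid desaturase NCU09497 had 6.70 and 8.18 at 120 min and 55.8 and 51.7 in the dark (-2.70 ± 0.11). A pair of genes of the GH61 family, whose members cleave cellulose oxidatively, fell as well: *gh61-12* to 2.95 and 3.80 FPKM at 120 min, against 26.8 and 33.3 in the dark, and *gh61-14* to 1.76 and 3.42 at 120 min, against 22.1 and 21.9 in the dark. *nic-7*, annotated as a 5'-methylthioadenosine phosphorylase, had 6.196 and 5.82 at 120 min and 48.1 and 46.4 in the dark (-2.78 ± 0.12). The others were the hypothetical proteins NCU09506, NCU05126, and NCU01380, with log2 fold changes of -2.93 ± 0.15, -2.83 ± 0.10, and -2.78 ± 0.15. All 10 had an adjusted p of 2.69e-05 or lower and were called in the unblocked fit, and 7 were called in the 10-sample fit, without *gh61-12*, *gh61-14*, and NCU01380.

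**Figure D2:**
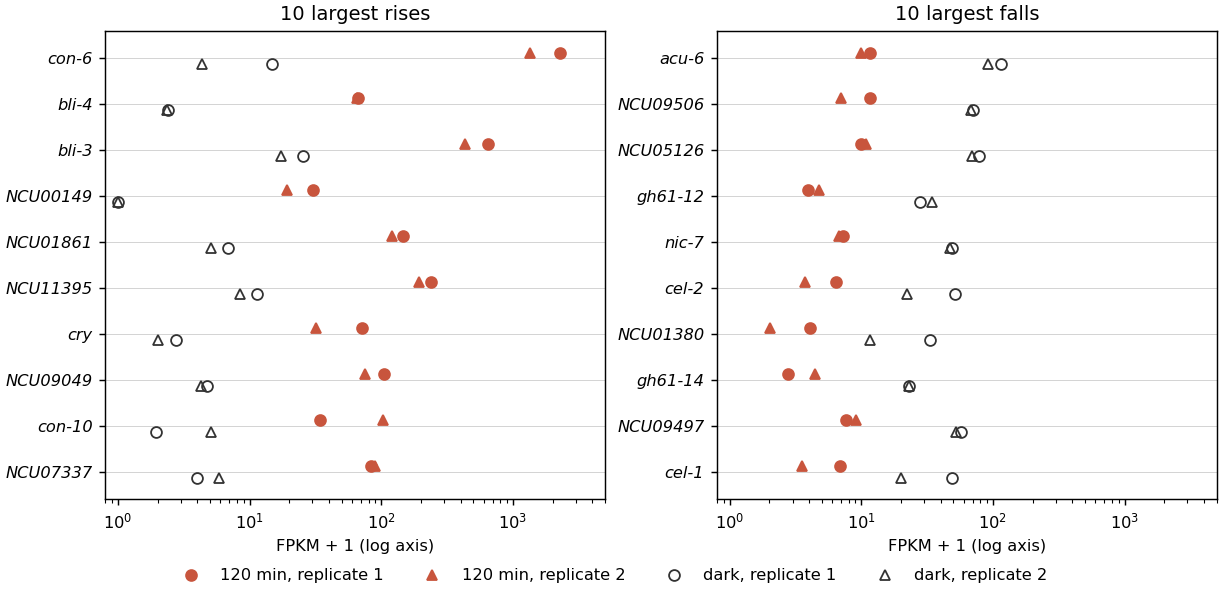
FPKM plus 1 on a log axis of the 10 largest rises (left) and the 10 largest falls (right), with filled red symbols for 120 min and open symbols for the dark, circles for replicate 1 and triangles for replicate 2. The 2 light samples and the 2 dark samples of each gene do not overlap. The genes were picked for their change in these samples, so this separation is no finding. *con-6* spans the widest range, with 2262 and 1358 FPKM at 120 min and 13.8 and 3.36 in the dark.

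Of the 6 expressed genes of the photoreceptor list, 5 were raised and 1 lowered, against 26.8% and 33.1% of all expressed genes. The list includes *wc-2*, whose product is the partner of the receptor WC-1 and not itself a light receptor. The median log2 fold change of the 6 genes was 1.28. *cry*, the DASH cryptochrome, had 69.8 and 30.8 FPKM at 120 min and 1.76 and 0.996 in the dark (4.34 ± 0.17), and *vvd* had 90.7 and 45.1 at 120 min and 4.52 and 2.18 in the dark (3.96 ± 0.08). The blue light receptor gene *wc-1* rose by less, with 14.4 and 4.22 at 120 min and 4.88 and 1.34 in the dark (1.27 ± 0.12). The opsin gene *nop-1* had 7.67 and 5.93 FPKM at 120 min and 2.13 and 2.18 in the dark (1.30 ± 0.12), and the phytochrome gene *phy-1* had 9.89 and 5.91 at 120 min and 4.70 and 2.73 in the dark (0.91 ± 0.10). *wc-2*, which encodes the partner of WC-1, was the gene that fell, to 10.0 and 8.30 FPKM at 120 min, against a mean of 12.5 ± 0.35 (SD, n = 2) in the dark (-0.42 ± 0.11, adjusted p = 0.0122). Its call was lost with median scaling (adjusted p = 0.0519). The second phytochrome gene, *phy-2*, did not exceed 0.396 FPKM in the 4 samples. In the unblocked fit 3 of the 6 calls remained (*cry*, *vvd*, *nop-1*) and in the 10-sample fit 4 (*cry*, *wc-1*, *vvd*, *phy-1*).

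In the carotenoid pathway, 4 of 5 genes were raised (80%) and 0 lowered, against 26.8% and 33.1% of all expressed genes. The median log2 fold change was 2.77. *al-1*, which encodes phytoene desaturase, had 76.1 and 46.002 FPKM at 120 min and 4.07 and 1.25 in the dark (4.15 ± 0.18). *al-2*, for the phytoene synthase and carotene cyclase, was the most abundant of the pathway at 120 min, with 305 and 161 FPKM. It had 18.1 and 9.81 in the dark (3.95 ± 0.08). *cao-2*, for the torulene-cleaving oxygenase, had 108 and 68.8 at 120 min and 13.9 and 10.0 in the dark (2.77 ± 0.09). *al-3*, for geranylgeranyl diphosphate synthase, the enzyme that supplies the precursor, rose by much less, with 8.003 and 8.61 FPKM at 120 min and 5.06 and 4.24 in the dark (0.72 ± 0.10, adjusted p = 0.000939). *ylo-1*, for the aldehyde dehydrogenase of the last step, had 25.9 and 18.6 at 120 min and 34.99 and 19.28 in the dark and did not pass the test (-0.24 ± 0.11, adjusted p = 0.101). The 4 calls also stood in the unblocked fit, and all but that of *al-3* in the 10-sample fit.

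Among 7 clock genes, 3 were raised and 3 lowered (42.9% each), against 26.8% and 33.1% of all expressed genes. *frq*, the negative element of the circadian oscillator and a direct target of the white collar complex, had 55.8 and 19.6 FPKM at 120 min and 10.62 and 2.71 in the dark (2.38 ± 0.12). *prd-4*, for the checkpoint kinase 2, had 38.5 and 17.4 at 120 min and 19.33 and 8.11 in the dark (0.99 ± 0.14), and *ck-1a*, for the casein kinase that phosphorylates FRQ, had 116 and 80.5 at 120 min and 75.3 and 60.1 in the dark (0.51 ± 0.11). *camk-1*, a calcium and calmodulin-dependent kinase gene, fell to 34.04 and 20.75 FPKM at 120 min, against 68 and 44.97 in the dark (-1.03 ± 0.08). None of these 4 calls stood in the unblocked fit, and 2 of them (*frq*, *camk-1*) stood in the 10-sample fit. Of the 9 clock-controlled *ccg* genes 7 were raised (77.8%) and 1 lowered (11.1%), against 26.8% and 33.1% of all expressed genes. Their median log2 fold change was 0.97. *ccg-1* was the most abundant of the raised genes at 120 min, with 21059 and 16640 FPKM, against 2357 and 2970 in the dark (2.82 ± 0.22). *ccg-13* had 13644 and 14129 at 120 min and 3468 and 1991 in the dark (2.40 ± 0.22), and *ccg-14* had 6615 and 4772 at 120 min and 1642 and 947 in the dark (2.17 ± 0.13). *ccg-16* was the member that fell, to 697 and 711 FPKM at 120 min, against 1134 and 1222 in the dark (-0.74 ± 0.14). In the unblocked fit 4 of the raised *ccg* genes were called, and 3 in the 10-sample fit.

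An earlier chromatin study had placed 27 genes for transcriptional regulators among the direct targets of the white collar complex. Of these 11 were raised (40.7%) and 5 lowered (18.5%), against 26.8% and 33.1% of all expressed genes. The other 11 were not called, a share near that of all expressed genes, of which 3084 of 7688 were not called. In the unblocked fit 3 were raised and 1 lowered, likewise in the 10-sample fit. The median log2 fold change of the 27 genes was 0.20. The largest rises were in the transcription factor gene NCU04295 (8.27 and 5.87 FPKM at 120 min, 2.30 and 1.01 in the dark), the NF-X1 finger gene NCU03273 (48.8 and 20.4 at 120 min, 14.4 and 6.55 in the dark), and *vos-1*, the homolog of the *Aspergillus* spore regulator VosA (9.7997 and 8.29 at 120 min, 2.53 and 2.21 in the dark), all between 1.57 and 1.63 on the log2 scale. NCU05994, annotated as transcription factor TamA, fell to 4.26 and 2.36 FPKM at 120 min, against 13.9 and 7.14 in the dark (-1.39 ± 0.11). After 120 min the largest changes among these regulators were far smaller than those of *con-6*, *cry*, or *al-1*. *con-6* and *cry* are among the 10 largest rises, so this is only a description.

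All 6 expressed genes of the conidiation list were raised, against 26.8% of all expressed genes (4 in the unblocked fit and 3 in the 10-sample fit). Their median log2 fold change was 2.64. The list includes markers of conidia and of their formation, a cell type other than mycelium, and its summed level was 2907 and 2151 FPKM at 120 min and 122 and 97.7 in the dark. Besides *con-6*, *con-10* had 33.5 and 102 FPKM at 120 min and 0.944 and 4.11 in the dark (4.24 ± 0.20), and *con-8* had 408 and 493 at 120 min and 33.8 and 42.7 in the dark (3.53 ± 0.11). *eas*, for the hydrophobin that coats conidia, had 198 and 194 at 120 min and 71.4 and 45.7 in the dark (1.76 ± 0.16). The regulators of conidiation stayed low: *fl* had 3.65 and 2.78 FPKM at 120 min and 1.86 and 1.63 in the dark (0.61 ± 0.11), and *acon-3* 1.10 and 0.759 at 120 min and 0.567 and 0.169 in the dark (0.51 ± 0.14). *con-13*, a gene of the later stages of conidiation, did not exceed 0.290 FPKM in these samples. Whether conidia or their precursors had formed in the lit cultures was not tested. Of 4 expressed genes of sexual tissue 2 were raised (50%) and 1 lowered (25%), against 26.8% and 33.1% of all expressed genes. *poi-2*, which takes part in the mating response, had 23.5 and 23.2 FPKM at 120 min and 2.74 and 2.06 in the dark (2.85 ± 0.11), the pheromone gene *ccg-4* had 188 and 477 at 120 min and 149 and 354 in the dark (0.38 ± 0.12), and the mating-type gene *matA-1* fell to 1.81 and 0.400 at 120 min, against 3.88 and 2.39 in the dark (-1.04 ± 0.18). The *ccg-4* call was lost with quantile normalization (adjusted p = 0.269).

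Of 36 DNA repair genes 6 were raised (16.7%) and 14 lowered (38.9%), against 26.8% and 33.1% of all expressed genes (2 and 2 in the unblocked fit, 2 and 4 in the 10-sample fit). The lowered count was 8 without the dark sample of replicate 1 and likewise 8 without the 120 min sample of replicate 1. *mus-18*, for the endonuclease that nicks DNA at photoproducts, rose most, to 16.6 and 10.98 FPKM at 120 min, against 1.52 and 1.13 in the dark (2.65 ± 0.13). The MutS homolog genes *msh6* (-1.23 ± 0.15) and *msh4* (-1.18 ± 0.17) and *mus-27*, annotated as a chromosome segregation protein, (-1.13 ± 0.11) fell, all being below 8 FPKM in the dark. Of 28 antioxidant genes 14 were raised (50%) and 6 lowered (21.4%), against 26.8% and 33.1% of all expressed genes (5 and 2 in the unblocked fit, 5 and 0 in the 10-sample fit). The peroxiredoxin NCU09534 had 546 and 482 FPKM at 120 min and 64.1 and 69.7 in the dark (2.92 ± 0.10), the catalase *cat-1* had 287 and 163 at 120 min and 69.3 and 44.3 in the dark (1.94 ± 0.08), and the glutathione S-transferase *gst-3* had 158 and 209 at 120 min and 56.6 and 75.9 in the dark (1.46 ± 0.09). The copper-zinc superoxide dismutase gene *sod-1* fell, with 224 and 354 FPKM at 120 min and 587 and 968 in the dark (-1.42 ± 0.10).

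Short-chain and alcohol dehydrogenases, which use NAD(P) to convert alcohols and carbonyls, spread widely. Of 28 expressed members 11 were raised (39.3%) and 7 lowered (25%), against 26.8% and 33.1% of all expressed genes. Of these 8 and 3 changed at least 2-fold in both replicates. The median was 0.09 (6 and 3 called in the unblocked fit, 4 and 5 in the 10-sample fit). Besides NCU01861 and NCU11395, the alcohol dehydrogenase NCU04823 had 276 and 315 FPKM at 120 min and 25.4 and 25.8 in the dark (3.48 ± 0.09), and the short-chain enzyme NCU02480 fell to 16.8 and 9.77 at 120 min, against 77.1 and 70.6 in the dark (-2.43 ± 0.17). The calls of these 4 genes stood in both the unblocked and the 10-sample fit. Of 32 heat shock and chaperone genes 20 were lowered (62.5%) and 6 raised (18.8%), against 33.1% and 26.8% of all expressed genes. Their median was -0.70 (8 and 2 called in the unblocked fit, 7 and 1 in the 10-sample fit). The chaperonin NCU04334 (-1.58 ± 0.10), the mitochondrial chaperone gene *hsp60* (-1.55 ± 0.11), and the Hsc70 cochaperone NCU10273 (-1.51 ± 0.09) fell, *hsp60* to 14.9 and 16.9 FPKM at 120 min, against 52.6 and 44.6 in the dark. The small heat shock protein gene NCU07232, annotated as heat shock protein 30, rose at the same time to 3788 and 2698 FPKM at 120 min, against 360 and 226 in the dark (3.48 ± 0.13). The summed FPKM of the list was 6485 and 4654 at 120 min and 3893 and 2748 in the dark. In both replicates NCU07232 alone gained more FPKM than the whole list did, so the other members together fell.

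Genes of ribosome production fell together. Of 62 genes of ribosome biogenesis 56 were lowered and 2 raised (20 and 0 in the unblocked fit, 31 and 0 in the 10-sample fit), against 33.1% and 26.8% of all expressed genes, 31 of them at least 2-fold in both replicates, and the median was -1.14. Part of these genes could be named only because a table of changed genes of the study names them, so the count is not independent of the outcome. Among the 17 members that come from a table in locus order, which does not depend on any response, 14 were lowered and 0 raised (median -0.70), against 553 lowered and 457 raised of the 1738 expressed genes of that table. NCU08595, annotated as a ribosome biogenesis protein, had 5.35 and 5.13 FPKM at 120 min and 32.7 and 21.28 in the dark (-2.14 ± 0.18), and *rbg-16*, for fibrillarin, which methylates rRNA, had 19.8 and 21.5 at 120 min and 76.5 and 87.8 in the dark (-1.94 ± 0.11). *crp-42*, named as a ribosomal protein gene but annotated as the assembly factor Sqt1, had 2.56 and 4.85 FPKM at 120 min and 15.2 and 17.82 in the dark (-1.93 ± 0.15). *rbg-29*, annotated as an oligoribonuclease, rose slightly, with 3.95 and 4.74 at 120 min and 3.10 and 1.41 in the dark (0.76 ± 0.23, adjusted p = 0.0232). Of 7 subunit genes of the RNA polymerases that transcribe rRNA and tRNA 5 were lowered and 0 raised (2 lowered in the unblocked fit, 4 in the 10-sample fit), *rpo-13* to 6.71 and 2.96 FPKM at 120 min, against 23.5 and 15.5 in the dark (-1.86 ± 0.14), and *rpo-18*, for the largest subunit of polymerase I, to 3.58 and 2.07 at 120 min, against 15.5 and 7.78 in the dark (-1.68 ± 0.14). The polymerase III subunit gene NCU03560 fell by 1.54 on the log2 scale.

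Of 79 genes for cytoplasmic ribosomal proteins 34 were lowered, 2 raised, and 43 not called (4 lowered in the unblocked fit, 1 in the 10-sample fit). The median log2 ratio of the 79 genes was -0.15 in replicate 1 and -0.61 in replicate 2. Their summed FPKM was 131323 and 175494 at 120 min and 136608 and 260242 in the dark. The estimate was thus nearer 0 in replicate 1. The total FPKM of the samples was 705219 and 720285 at 120 min and 570422 and 729103 in the dark, and its part in this difference was not tested. With median scaling 20 of these genes were lowered, with quantile normalization 50, and with the compared samples alone 12. The count of lowered genes was 14 without the 120 min sample of replicate 1, 9 without that of replicate 2, 53 without the dark sample of replicate 1, and 18 without that of replicate 2. The 2 largest falls were not in structural proteins but in *crp-42* and *crp-84*, annotated as the biogenesis factor RLP24 (-1.49 ± 0.12). The stalk protein gene *po* had 785 and 1045 FPKM at 120 min and 1564 and 2347 in the dark (-1.08 ± 0.13), and *crp-73*, for ribosomal protein S30, rose to 1415 and 1400 at 120 min, against 429 and 567 in the dark (1.51 ± 0.14). Of 59 genes for mitochondrial ribosomal proteins 53 were lowered (89.8%) and 1 raised (1.69%), against 33.1% and 26.8% of all expressed genes. The unblocked fit called 29 and 0, and the 10-sample fit 16 and 0. The median log2 ratio of this list was -0.93 in replicate 1 and -0.85 in replicate 2. *mrp-55*, for a large-subunit protein, had 18.9 and 48.7 FPKM at 120 min and 70.96 and 135 in the dark (-1.66 ± 0.11). *mrp-1*, which carries the annotation of an iron superoxide dismutase, fell by 1.82 on the log2 scale, *mrp-65* had 1.41 and 25.8 at 120 min and 16.6 and 40.1 in the dark (-1.75 ± 0.48), and *mrp-3* was the raised one (0.46 ± 0.16), a call that was lost with quantile normalization (adjusted p = 0.106).

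**Figure D3:**
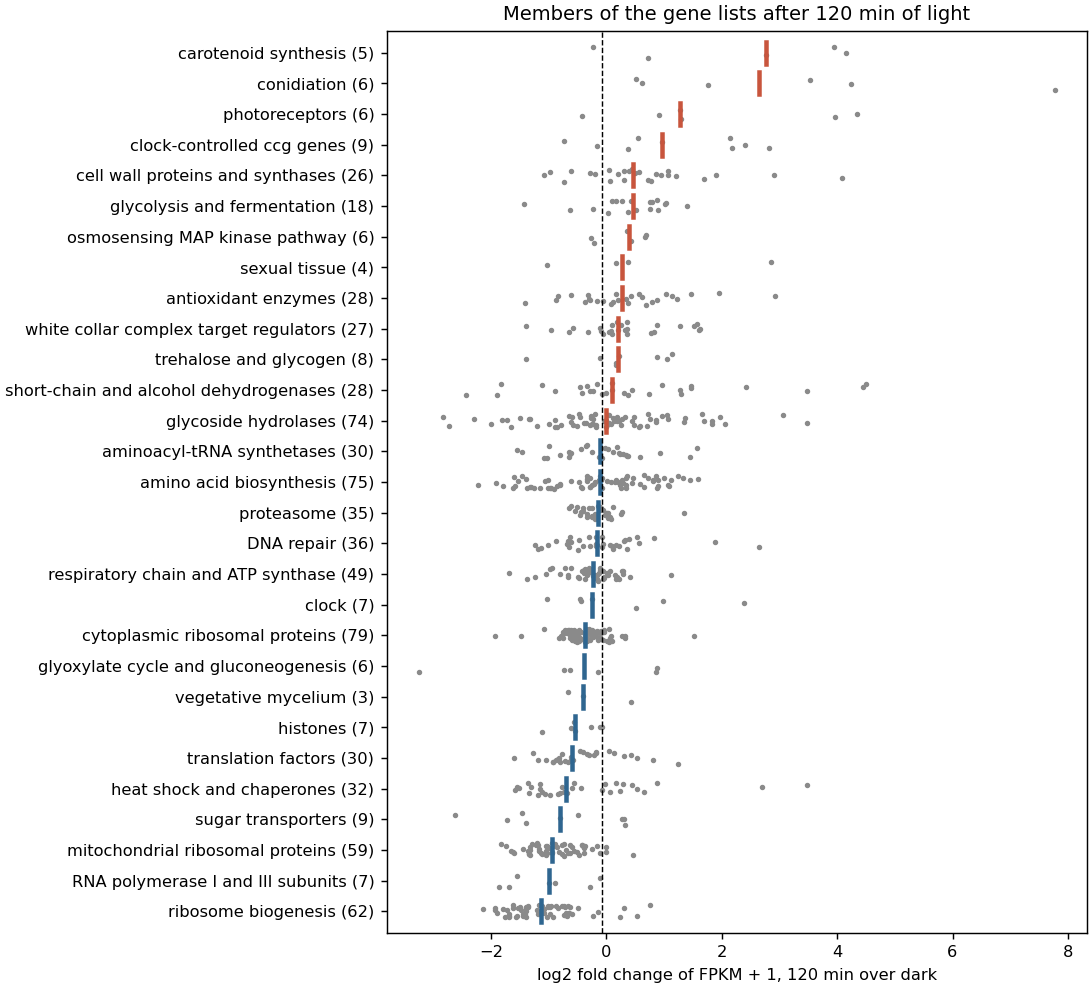
Log2 fold change of FPKM plus 1, 120 min over dark, for every expressed member of 29 gene lists, with the number of members in brackets. Each grey point is a gene, the thick bar is the median of the list (red above and blue below the median of all expressed genes), and the dashed line is that median, -0.07. The lists run from carotenoid synthesis with a median of 2.77 to ribosome biogenesis with a median of -1.14.

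Other parts of the translation and protein turnover machinery differed from one another, and histone genes are given with them. Of all expressed genes 33.1% were lowered and 26.8% raised. The shares were 60% and 13.3% for translation factors and 43.3% and 26.7% for aminoacyl-tRNA synthetases. For proteasome genes they were 31.4% and 5.71%, and for histones 71.4% and 0%. The lowered share of the proteasome genes and the raised share of the synthetases were thus near those of all genes. Of 30 translation factor genes 18 were lowered and 4 raised, with a median of -0.59 (7 and 2 in the unblocked fit, 2 and 0 in the 10-sample fit). The initiation factor gene *eif3d* had 28.4 and 22.6 FPKM at 120 min and 93.8 and 65.9 in the dark (-1.60 ± 0.08), *eef1B-gamma* had 295 and 287 at 120 min and 668 and 737 in the dark (-1.27 ± 0.10), and the cap-binding factor *eif4E* fell by 1.19. The raised *eif6*, whose product acts in the maturation of the large ribosomal subunit, had 356 and 459 FPKM at 120 min and 142 and 202 in the dark (1.25 ± 0.13). Of 30 aminoacyl-tRNA synthetases 13 were lowered and 8 raised (3 and 1 in the unblocked fit, 5 and 2 in the 10-sample fit), the raised count was 5 without the 120 min sample of either replicate and 3 with quantile normalization, and their median of -0.10 turned to 0.03 with median scaling. The lysyl (NCU00931, -1.54 ± 0.10), tryptophanyl (NCU11834, -1.47 ± 0.11), and tyrosyl (*cyt-18*, -1.08 ± 0.11) enzymes fell, and an aspartyl enzyme, NCU00915, rose to 793 and 580 FPKM at 120 min, against 273 and 189 in the dark (1.57 ± 0.09). Of 35 proteasome genes 22 were not called, and the 11 lowered ones fell by at most 0.66 (*pca-1*, with 77.04 and 84.0 FPKM at 120 min and 115 and 141 in the dark). The lowered count was 1 in the unblocked fit, 0 in the 10-sample fit, 22 with quantile normalization, and 7 without the 120 min sample of either replicate. Further lowered genes were *rpn-12* (-0.61 ± 0.11) and the activator NCU05620 (-0.55 ± 0.14). The raised *rpn-4* (114 and 42.5 at 120 min, 43.9 and 16.5 in the dark, 1.34 ± 0.11) is annotated as a C2H2 transcription factor and is no subunit. Of 7 histone genes 5 were lowered, among them *hH3v* (-1.12 ± 0.11), *hH2A* with 921 and 1113 FPKM at 120 min and 1388 and 1715 in the dark (-0.61 ± 0.13), and *hH1* (-0.56 ± 0.11). The count was 1 in the unblocked fit, 0 in the 10-sample fit, 3 without the dark sample of replicate 2, and 2 and 3 without the 120 min sample of replicate 1 and of replicate 2.

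Of 18 genes of glycolysis and fermentation 9 were raised (50%) and 2 lowered (11.1%), against 26.8% and 33.1% of all expressed genes. Their median was 0.46 (3 and 0 called in the unblocked fit, 2 and 0 in the 10-sample fit). Phosphoglycerate mutase NCU04016 had 242 and 147 FPKM at 120 min and 98.7 and 51.1 in the dark (1.40 ± 0.08), and glucose-6-phosphate isomerase, *gpi-1*, had 921 and 689 at 120 min and 437 and 344 in the dark (1.04 ± 0.09). Of the other genes annotated as phosphoglycerate mutase, NCU07258 rose (1.02 ± 0.09) and NCU09489 fell (-1.44 ± 0.17). Of 6 genes of the glyoxylate cycle and gluconeogenesis 3 were lowered (50%) and 2 raised (33.3%). The unblocked fit called 1 and 1, and the 10-sample fit 1 and 0. Beside *acu-6*, the acetyl-CoA synthetase gene *acu-5* (-0.74 ± 0.08) and *fbp-1* (-0.63 ± 0.15) fell, and the isocitrate lyase gene *acu-3* rose to 22.5 and 36.8 FPKM at 120 min, against 13.2 and 17.6 in the dark (0.87 ± 0.10). For storage carbohydrates, 4 of 8 genes were raised (50%) and 1 lowered (12.5%). The unblocked fit called 0 and 1, and the 10-sample fit 0 and 0. The genes for the trehalase *tre-2* (164 and 98.2 at 120 min, 73.04 and 44.8 in the dark) and the glycogen phosphorylase NCU07027 (949 and 472 at 120 min, 446 and 235 in the dark) rose by 1.14 and 1.05, the trehalose phosphatase gene *gt20-1* by 0.89, and glycogen synthase, *gsy-1*, fell by 1.39 to 21.8 and 15.6 FPKM at 120 min, against 53.6 and 46.7 in the dark. Of 49 genes of the respiratory chain and the ATP synthase 21 were lowered and 1 raised (3 and 0 in the unblocked fit, 5 and 0 in the 10-sample fit), and 13 were lowered without the 120 min sample of either replicate. The raised count was 6 without the dark sample of replicate 2 and 5 with median scaling. In the main fit the respiratory list was 42.9% lowered and 2.04% raised, against 33.1% and 26.8% of all expressed genes. Its 3 largest falls were in assembly factors and not in subunits. They were NCU02705 (-1.68 ± 0.18) and NCU00676 (-1.24 ± 0.14) for the ATP synthase and *cia30* for complex I (-1.38 ± 0.11). The raised NCU07783 (1.12 ± 0.11) belongs to the LYR family.

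Of 75 amino acid biosynthesis genes 32 were lowered (42.7%) and 28 raised (37.3%), against 33.1% and 26.8% of all expressed genes (12 and 9 in the unblocked fit, 14 and 3 in the 10-sample fit). The largest falls were in the branched-chain and lysine pathways. *leu-2*, for isopropylmalate dehydratase, had 12.31 and 9.84 FPKM at 120 min and 64.2 and 47.5 in the dark (-2.23 ± 0.10), *ilv-2*, for ketol-acid reductoisomerase, had 128 and 113 at 120 min and 470 and 442 in the dark (-1.91 ± 0.08), and *lys-6*, for homoaconitase, fell by 1.79. *arg-12*, for ornithine carbamoyltransferase, rose to 117 and 81.4 FPKM at 120 min, against 43.7 and 23.1 in the dark (1.59 ± 0.14).

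Of 26 expressed genes for cell wall proteins and wall synthases 17 were raised and 5 lowered (6 and 1 in the unblocked fit, 1 and 0 in the 10-sample fit), and 11 were raised without the 120 min sample of replicate 1. *ncw-5*, for a non-anchored cell wall protein, had 2507 and 3022 FPKM at 120 min and 154 and 170 in the dark (4.08 ± 0.10), *ncw-6* had 95.2 and 126 at 120 min and 11.4 and 16.8 in the dark (2.90 ± 0.14), and *ncw-3* had 13482 and 9940 at 120 min and 3085 and 3105 in the dark (1.90 ± 0.17), while *ncw-2* fell to 137 and 160 at 120 min, against 312 and 316 in the dark (-1.08 ± 0.10). None of these 4 was called in the 10-sample fit. In the main fit 65.4% of the cell wall list were raised and 19.2% lowered, against 26.8% and 33.1% of all expressed genes. Of 74 expressed glycoside hydrolase genes, out of 125 listed, 25 were raised (33.8%) and 26 lowered (35.1%), against 26.8% and 33.1% of all expressed genes (10 and 14 in the unblocked fit, 4 and 7 in the 10-sample fit). With *gh61-12* and *gh61-14*, the polygalacturonase gene *gh28-1* fell, to 24.9 and 16.5 FPKM at 120 min, against 105 and 101 in the dark (-2.29 ± 0.14), whereas *gh54-1*, for an arabinofuranosidase, rose to 147 and 102 at 120 min, against 10.7 and 9.401 in the dark (3.48 ± 0.12). Of 9 expressed sugar transporter genes 6 were lowered (66.7%) and 1 raised (11.1%), with a median of -0.80 (4 lowered in the unblocked fit, 3 in the 10-sample fit). Among the 6 that come from the table in locus order 3 were lowered and 1 raised, with a median of -0.11. The transporter genes NCU04963 (2.44 and 1.18 FPKM at 120 min, 18.8 and 13.43 in the dark, -2.63 ± 0.11), *hgt-1* (-1.72 ± 0.11), and NCU05627 (-1.47 ± 0.09) fell, and *sut-4* rose by 0.33 ± 0.10. Genes of the osmosensing MAP kinase pathway changed little: the upstream kinase *os-4* (0.69 ± 0.11), the transcription factor *asl-1* (0.67 ± 0.08), and the kinase *os-5* (0.42 ± 0.12) were raised, and the histidine kinase *os-1* was lowered (-0.27 ± 0.09), and 0 of them were called in the unblocked or the 10-sample fit. The call of *os-1* was lost with median scaling (-0.15, adjusted p = 0.202) and without either dark sample or the 120 min sample of replicate 2. Of the 6 genes of this pathway 4 were raised, or 2 without the dark sample of replicate 2 or the 120 min sample of either replicate.

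To place the 120 min state in time, it was compared directly with 60 min of light in the same fit, whose spread is estimated from all 8 samples. At 120 min 1123 genes were higher (14.6%) and 1277 lower (16.6%) than at 60 min. This comparison rests on the block, since 1 gene was higher and 13 lower in the unblocked fit (785 had an unadjusted p under 0.05), and 0 and 0 in the 10-sample fit (913 at an unadjusted p under 0.05). Leaving out single samples gave 318 higher and 625 lower genes without the 120 min sample of replicate 1, 201 and 448 without that of replicate 2, 550 and 710 without the 60 min sample of replicate 1, and 688 and 938 without that of replicate 2. Of the 469 genes raised at least 2-fold against the dark, 136 were lower than at 60 min, 83 higher, and 250 neither. These genes were picked by their 120 min values, so the split is a description.

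The largest falls relative to 60 min were in NCU06915, a hypothetical protein, with 0.240 and 1.38 FPKM at 120 min and 85.2 and 62.3 at 60 min, and NCU08770, the neighbour of *con-6*. NCU08770 had 18.39 and 10.7 FPKM at 120 min and 582 and 554 at 60 min. NCU02190, annotated as an oxysterol binding protein, had 10.3 and 8.43 at 120 min and 94.2 and 81.8 at 60 min. NCU08770 and NCU02190 were still above the dark at 120 min (2.32 ± 0.25 and 2.501 ± 0.121), whereas NCU06915 did not pass the test against it (0.71 ± 0.31, adjusted p = 0.0836), although it did with median scaling (adjusted p = 0.0492). All 5 carotenoid genes were lower at 120 min than at 60 min, against 16.6% of all expressed genes. *al-1* was lower by 2.82 ± 0.18 on the log2 scale, with 523 and 346 FPKM at 60 min. *con-10* was lower by 2.90 and *bli-4* by 3.01. *con-6*, *cry*, *frq*, and *ccg-1* did not pass the test against 60 min, with differences of -0.97 ± 0.45, -0.54 ± 0.17, -0.12 ± 0.12, and -0.14 ± 0.22. The largest rise relative to 60 min was in NCU11778, with 2.98 and 5.17 FPKM at 120 min and 0.544 and 0 at 60 min, a gene that had 2.75 and 5.75 in the dark. NCU01011, a hypothetical protein, had 18.6 and 34.6 FPKM at 120 min and 5.63 and 7.72 at 60 min, and the ferric reductase NCU00829 had 19.2 and 19.5 at 120 min and 5.21 and 5.18 at 60 min. *ncw-5* was also higher than at 60 min (1.33 ± 0.10).

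**Figure D4:**
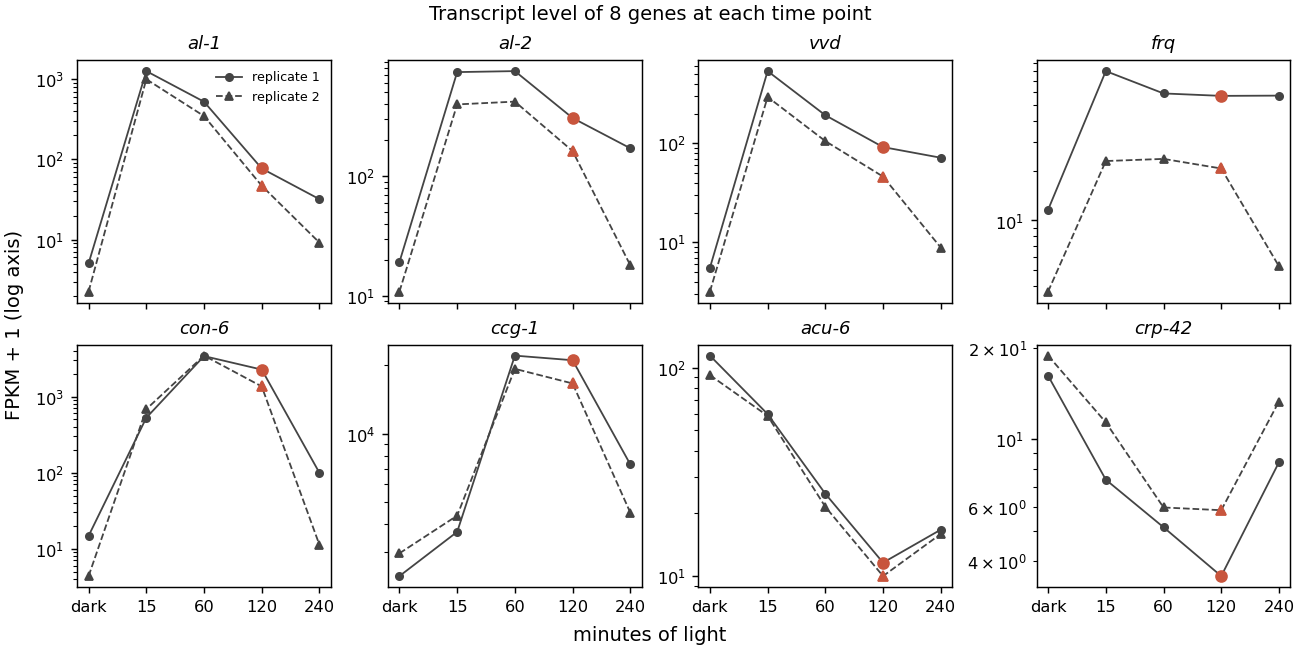
FPKM plus 1 on log axes that differ between panels, at the dark and at 15, 60, 120, and 240 min of light for 8 genes, with circles and solid lines for replicate 1 and triangles and dashed lines for replicate 2. The 120 min samples are in red. *al-1* had 76.1 and 46.002 FPKM at 120 min after 523 and 346 at 60 min. *acu-6* and *crp-42* were at their lowest at 120 min in both replicates. By the limma test against 60 min *crp-42* was not called (-0.28 ± 0.15, adjusted p = 0.195).

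Of the 79 cytoplasmic ribosomal protein genes 77 had a lower estimate at 120 min than at 60 min, 71 by the test and 0 higher, with a median difference of -0.84, and their summed FPKM was 131323 and 175494 at 120 min and 230638 and 316099 at 60 min. The mitochondrial ribosomal protein genes were also lower (51 of 59 by the test, 0 higher, median -0.62), with 37 of 49 respiratory genes (median -0.56) and 6 of 7 histone genes (median -0.78). Of all expressed genes 16.6% were lower and 14.6% higher than at 60 min. Of the ribosome biogenesis genes 15 were higher and 2 lower than at 60 min, with a median of 0.24, and the 15 became 4 with quantile normalization and 1 to 7 without single samples. These counts depended on the scaling and on single samples. With quantile normalization 11 cytoplasmic ribosomal protein genes were lower (median -0.20), 34 mitochondrial ones (median -0.42), 14 respiratory ones, and 3 histone genes (median -0.32). The cytoplasmic count was 31 and 8 without the 120 min sample of replicate 1 and of replicate 2, and 19 and 57 without the 60 min sample of replicate 1 and of replicate 2. For the mitochondrial genes it was 28 to 40 and for the respiratory genes 15 to 36 without single samples, and in the unblocked and the 10-sample fit no gene of these 3 lists was called. The total FPKM of the samples moved the same way, with 705219 and 720285 at 120 min and 944127 and 1009370 at 60 min, and its part in this result was not tested.

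**Figure D5:**
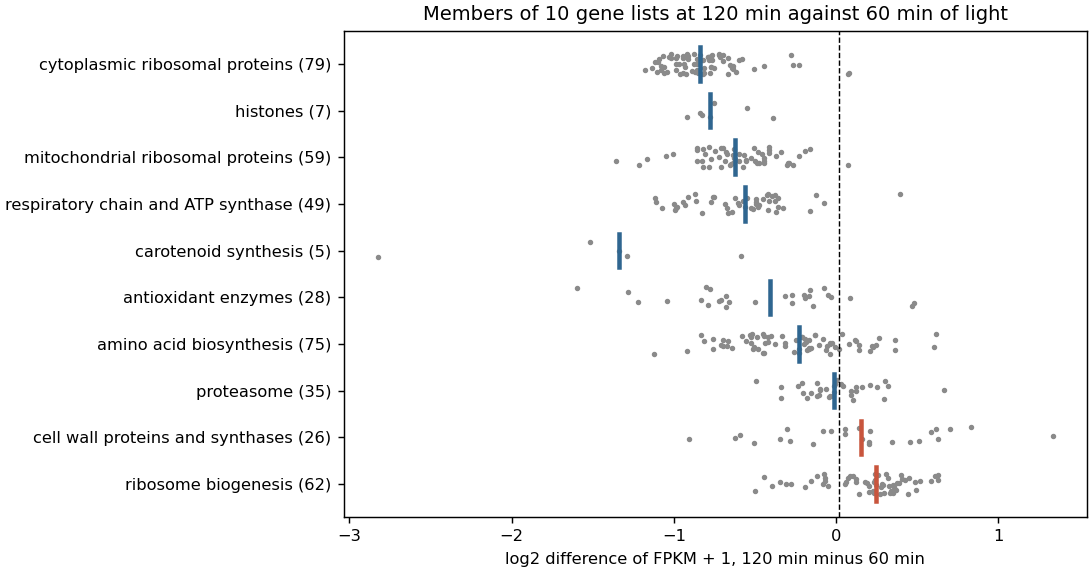
Log2 difference of FPKM plus 1, 120 min minus 60 min, for the members of 10 gene lists, with the number of expressed members in brackets. Grey points are genes, thick bars are list medians (blue below and red above the median of all expressed genes, 0.02, drawn as a dashed line), and the bar stands at -0.84 for the cytoplasmic ribosomal proteins and at 0.24 for ribosome biogenesis.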

How the data were processed

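The authors aligned 51-base reads with TopHat 2.0.5 to the *N. crassa* genome, assembly 10, and deposited FPKM values from Cuffdiff for each gene and sample, with bias and multiple-read correction and without pooling of replicates. Whether the counting used strand is not given in the sources used here. In the RefSeq table of assembly NC12, 30 of the 130 named genes overlap another gene (*con-6*, *bli-3*, *cry*, and *al-3* among them), and reads of such genes may not be told apart. FPKM keeps no counts, so counting error is part of the spread between replicates.

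Groups and replicate numbers were taken from the sample records. Genes were tested with limma 3.58.1 (R 4.3.3) on log2(FPKM + 1) of 7688 expressed genes in 8 samples (dark, 15, 60, and 120 min), with 1 mean per time point, the replicate number as a block, and eBayes with trend (3 residual degrees of freedom, prior 3.86). P-values were two-sided and adjusted by Benjamini-Hochberg within a contrast, and the threshold was 0.05. The 240 min samples were left out because their replicates were known to diverge. The pseudocount of 1 understates changes of low genes. The replicate numbers pair the samples: deviations of same-numbered samples from the time point means correlated at 0.760 to 0.841 among these time points, and at 0.334 to 0.412 with 240 min, and RNA isolation differed by replicate number. Samples of a group are separate cultures.

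The text names the 10 largest rises and falls among genes called and changed at least 2-fold in both replicates, all carotenoid and photoreceptor genes, up to 3 members of each other list in its main direction and 1 in the other, and the 3 largest differences from 60 min each way. Members and lists were chosen with earlier results of these data known. Symbols and annotations came from RefSeq and from the study's tables, which name 4943 genes, partly for their response. Of the 539 genes lowered at least 2-fold in both replicates 0 lacked an annotation, and of the 469 raised 62 did. Among all 7688 expressed genes 3283 did. Counts of lists built from names are thus not independent of the outcome. Among members in locus order the medians were -0.56 (heat shock and chaperones), -0.47 (translation factors), -0.95 (mitochondrial ribosomal proteins), and -0.63 (aminoacyl-tRNA synthetases). *eas*, *fl*, *acon-3*, *con-13*, *nmt-1*, *pre-1*, *pre-2*, and *phy-2* are named as markers or list members. The alternatives were no replicate block, all 10 samples, the compared samples alone, pseudocounts of 0.1 and 5, other filters, median and quantile scaling, and leaving out single samples. The fit was tested on simulated data. A planned motif count in promoters was not run. Figures were drawn with matplotlib 3.10.9 in Python 3.11.15.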

Additional observations from a re-analysis of the deposited data

Results flagged for a closer look

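The effect of light on a gene, measured against the dark, differed between 60 and 120 min for 66 of the 130 named genes by the direct test of 120 min minus 60 min (limma with the replicate block, adjusted p of 0.05 or less), against 14.6% of all expressed genes higher and 16.6% lower. The named genes were chosen in part for large values at 120 min or large differences from 60 min, so this count is no finding about them. These calls rest on the block, as given above. Values are log2 differences of FPKM plus 1.

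Among light-induced genes the level was lower at 120 min for *bli-4* (-3.01), *con-10* (-2.90), *al-1* (-2.82), *bli-3* (-2.12), NCU09049 (-1.81), NCU11395 (-1.63), *al-3* (-1.51), *al-2* (-1.34), *cao-2* (-1.29), *vos-1* (-1.19), *vvd* (-1.13), NCU01861 (-1.08), NCU04823 (-1.07), *cat-1* (-0.84), *arg-12* (-0.76), *mrp-3* (-0.64), *acu-3* (-0.62), *ccg-4* (-0.60), *ncw-6* (-0.59), *con-8* (-0.37), and NCU04016 (-0.37). The induced genes *ncw-5* (1.33), *phy-1* (1.09), *gh54-1* (0.89), *ccg-14* (0.67), *gst-3* (0.48), and NCU07027 (0.46) were higher at 120 min. NCU08770 (-5.24) and NCU02190 (-3.10) were lower, as was NCU06915 (-5.43), and NCU01011 (1.80), NCU00829 (1.72), and NCU11778 (2.00) were higher. *ylo-1* (-0.59) was lower at 120 min and not called against the dark there.

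Genes lowered at 120 min against the dark that were also lower than at 60 min were NCU05126 (-1.15), *acu-6* (-1.10), NCU04334 (-1.10), *mrp-1* (-1.003), NCU02480 (-0.94), *gh61-12* (-0.93), NCU09497 (-0.90), *po* (-0.86), *mrp-55* (-0.86), *gh28-1* (-0.77), *hH3v* (-0.75), NCU01380 (-0.74), *eef1B-gamma* (-0.70), *nic-7* (-0.67), NCU00676 (-0.64), *hsp60* (-0.61), *gh61-14* (-0.60), *ilv-2* (-0.58), NCU09506 (-0.53), *cia30* (-0.53), *lys-6* (-0.51), NCU04963 (-0.48), NCU11834 (-0.42), and NCU10273 (-0.28). Lowered genes that were higher than at 60 min were *os-1* (0.79), NCU05620 (0.66), and *wc-2* (0.39).

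Of the named genes lower than at 60 min, a few were called below the dark at 120 min and not at 60 min. *ccg-16* (-2.03) had 1134 and 1222 FPKM in the dark, 3240 and 2561 at 60 min, and 697 and 711 at 120 min. It was above the dark at 60 min (1.29 ± 0.14) and below it at 120 min, both by the test. *sod-1* (-1.60), *hH2A* (-0.92), *hH1* (-0.84), and *hex-1* (-0.53) were not called against the dark at 60 min, where *hex-1* was already at -0.13, and were lowered at 120 min. The calls of these 4 genes and of *ccg-16* against the dark at 120 min did not stand without the replicate block or with all 10 samples. The gene *po*, listed above, was also not called against the dark at 60 min (-0.22 ± 0.13). Its call at 120 min stood without the replicate block but not with all 10 samples. NCU00829 had a call below the dark at 60 min (-0.96 ± 0.10) and above it at 120 min (0.76 ± 0.10).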

How the results depend on the processing

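Among the 130 genes named by the rule, the only sign changes under the alternatives run were in NCU11778, which was not called against the dark (-0.02): 0.080 with median scaling, 0.14 with quantile normalization, and -0.37 to 0.32 without single samples (0.32 without dark replicate 2, 0.18 without 120 min replicate 1). Of 130 named genes, all but 3 of which were called, 81 were called without the replicate block and 57 with all 10 samples, 45 in both. Without the replicate block (the paired analysis removed), 524 genes were raised and 699 lowered against the dark, and 1 was higher and 13 lower than at 60 min. With all 10 samples the numbers were 253 and 622, and 0 and 0. With only genes above 10 FPKM, 1497 were lowered among fewer genes tested. With quantile normalization 836 were lower than at 60 min. With a pseudocount of 5, 304 genes were raised and 228 lowered at least 2-fold in both replicates. Leaving out single samples gave 1537 to 1795 raised and 1880 to 2158 lowered genes, 201 to 688 higher and 448 to 938 lower than at 60 min, and, from 1 replicate alone, 600 to 621 genes raised and 718 to 742 lowered at least 2-fold. Median scaling moved the median of all genes by 0.10 on the log2 scale and the calls to 2463 raised and 2069 lowered (54.3% raised, against 44.7% in the main fit), and the medians of the aminoacyl-tRNA synthetases, of amino acid biosynthesis (0.01), and of the glycoside hydrolases (0.11) became positive. Apart from the smaller number of genes or samples in some settings, the cause of these shifts was not tested. Replicate 2 had fewer reads, which limits the precision of low genes.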
